A study of Mus musculus with 6 samples.

Results

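This account covers 10 genes of cellular zinc handling: the zinc exporter genes Slc30a1, Slc30a2, Slc30a4, Slc30a5, Slc30a6, Slc30a7 and Slc30a9, the metallothionein genes Mt1 and Mt2, and Mtf1, the gene of the zinc-sensing transcription factor. They were chosen by symbol, and each matched 1 of the 23244 loci in every file. The choice followed the known difference of Slc30a2 between the groups, so that difference is given here as a description and with no test. RNA was sequenced from mouse embryonic stem (ES) cells of 2 groups with 3 libraries each. The null libraries came from a subcloned ES line that lacks Zscan10, a zinc-finger gene expressed in ES cells. The control libraries came from floxed ES cells (Zscan10 f/f), whose Zscan10 is flanked by loxP sites but undeleted, and their titles carry the mark -Tx, which the null titles lack. The line was built for inducible deletion by Cre recombinase. The null cells are a subclone, so genotype, subclone and any treatment marked by -Tx cannot be told apart. The labels do not tell separate cultures from repeat libraries of 1 culture, and p-values here reflect only library-to-library spread, which may be technical.

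Zinc leaves the cytosol through the SLC30 (ZnT) transporters, which move it out of the cell or into vesicles and the Golgi, and it enters through the SLC39 (ZIP) transporters. Metallothioneins are small cysteine-rich proteins that bind zinc and copper. MTF1 binds metal response elements in promoters when zinc is high, and the metallothionein genes and Slc30a1 are its best known targets in mouse.

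The promoter windows of Mt1 and Mt2 are shown because both genes were lower in null libraries. That of Slc30a1 is shown as a known MTF1 target, and that of Slc30a2 because this gene differed most among the 10. Each window runs from 250 bases before to 50 bases after the annotated start of 1 RefSeq model (GRCm38.p6), 5′ to 3′ on the gene's strand. That start lies at the outermost RefSeq start of the gene for Mt2, but 84, 206 and 420 bases downstream of it for Slc30a1, Mt1 and Slc30a2. The Slc30a2 window and both of its matches therefore lie inside the annotated span of the gene. All matches in the Mt1 and Slc30a1 windows also lie inside the annotated spans of those genes, downstream of the outermost start. Capitals mark the core letters of the metal response element, TGCACNC or TGCGCNC, on either strand, where a match on the other strand reads GNGTGCA or GNGCGCA.
Mt1, chr8:94178839-94179138, plus strand: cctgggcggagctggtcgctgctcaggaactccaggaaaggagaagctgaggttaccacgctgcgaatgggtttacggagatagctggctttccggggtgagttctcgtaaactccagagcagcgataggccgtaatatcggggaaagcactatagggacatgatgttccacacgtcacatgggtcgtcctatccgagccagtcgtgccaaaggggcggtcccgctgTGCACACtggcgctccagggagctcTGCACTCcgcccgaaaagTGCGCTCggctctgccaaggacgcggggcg
Mt2, chr8:94172368-94172667, plus strand: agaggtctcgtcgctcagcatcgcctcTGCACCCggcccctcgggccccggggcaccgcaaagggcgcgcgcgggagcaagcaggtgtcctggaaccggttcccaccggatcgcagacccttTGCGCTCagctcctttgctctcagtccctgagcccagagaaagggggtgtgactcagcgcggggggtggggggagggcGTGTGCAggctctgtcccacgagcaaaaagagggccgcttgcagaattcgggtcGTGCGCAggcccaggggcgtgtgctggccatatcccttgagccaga
Slc30a1, chr1:191906531-191906830, plus strand: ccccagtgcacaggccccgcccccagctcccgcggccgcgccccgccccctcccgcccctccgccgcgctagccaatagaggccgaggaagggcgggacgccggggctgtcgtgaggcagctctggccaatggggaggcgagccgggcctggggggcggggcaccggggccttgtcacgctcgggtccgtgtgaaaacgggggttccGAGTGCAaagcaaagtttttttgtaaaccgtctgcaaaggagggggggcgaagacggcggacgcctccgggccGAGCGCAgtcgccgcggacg
Slc30a2, chr4:134343216-134343515, plus strand: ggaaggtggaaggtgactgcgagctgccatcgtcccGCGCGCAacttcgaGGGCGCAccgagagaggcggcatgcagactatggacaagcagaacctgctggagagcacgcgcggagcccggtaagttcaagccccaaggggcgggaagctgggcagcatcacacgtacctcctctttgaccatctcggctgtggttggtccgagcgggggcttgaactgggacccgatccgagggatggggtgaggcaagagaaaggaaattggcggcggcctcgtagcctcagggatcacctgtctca
All 10 genes had a window. The Mt2 window held 4 matches, the Mt1 and Slc30a4 windows 3 each, those of Slc30a1 and Slc30a2 2 each, and that of Slc30a5 1. The windows of Slc30a6, Slc30a7, Slc30a9 and Mtf1 held 0. Of all 32851 windows of this length, 25.7% held at least 1 match, 7.11% at least 2, 1.97% at least 3 and 0.517% at least 4. The 2 matches of Slc30a2 are of the TGCGCNC form, and 2 of the 3 in Mt1 are TGCACNC, a form that 12.6% of all windows hold. A match is only a stretch of letters, and a window without one says nothing of MTF1 at that gene.

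Zscan10 itself was at 5.49, 4.43 and 5.47 FPKM (fragments per kilobase of transcript, scaled to library depth) in null libraries, against 44.2, 43.0 and 41.9 FPKM in control libraries. The direction is that of the labels, but the null mean was 11.9% of the control mean and not 0. The source of this remaining RNA was not tested. Values summed to 664555 to 678200 FPKM in null libraries and to 685905 to 699401 FPKM in control libraries, and each library rests on a rough 7630000 to 8450000 fragments. The ES cell markers Pou5f1, Nanog, Sox2, Esrrb, Zfp42 and Klf4 were at 29.7 FPKM or more in every library and summed to 1650 to 1769 FPKM in null and 1819 to 1861 FPKM in control libraries. Of the 6, Esrrb and Zfp42 passed as lower (limma adjusted p = 0.00941 and 0.0188). Over all tested loci, 25.2% passed in either direction and 12.4% as lower. Of 8 fibroblast markers, kept as a sign of feeder cells, 3 were tested, with Thy1 higher and Acta2 and Tagln lower. Their 8 values summed to 7.24 to 14.4 FPKM in null libraries and 15.8 to 18.8 FPKM in control libraries. Postn was at 0 in all null libraries, and Col1a1 and Col1a2 averaged 0.0861 and 0.0776 FPKM in null libraries, against 0.738 and 1.13 FPKM in control libraries. Col3a1 and S100a4 averaged 0.395 and 0.653 FPKM in null libraries, against 0.363 and 0.401 FPKM in control libraries. The 6 extraembryonic endoderm markers summed to 2.42 to 3.23 FPKM in null and 3.09 to 4.13 FPKM in control libraries.

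Among the exporters, Slc30a2 alone lay far apart between the groups. Slc30a2 encodes ZnT2, a vesicular zinc transporter known for loading zinc into milk. It was at 14.9, 14.5 and 13.8 FPKM in null libraries, against 4.16, 4.03 and 3.98 FPKM in control libraries. All null values stood above all control values, with no overlap and little spread within either group. The means were 14.4 ± 0.564 FPKM in null and 4.06 ± 0.0915 FPKM in control libraries (SD, n = 3 each), a ratio of 3.54. The log2 fold change on the log2(FPKM + 1) scale was 1.60 with an SE of 0.06, the 21st largest of 11480 tested loci. These values rest on roughly 335 to 385 fragments per null library and 97 to 107 per control library. In bulk samples such as these, fewer cells of a type and less RNA per cell cannot be told apart.

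The other 6 exporters did not share this difference. None of them passed an adjusted p of 0.05 in limma, in a comparison in which 25.2% of all 11480 tested loci passed. Of the 6, 0 had an unadjusted p under 0.05, against 4502 of all 11480 tested loci. Since the 10 genes were chosen with results of this comparison known, their adjusted p-values say only where each stands in the fit over all loci. The log2 fold changes of the 6 exporters had a median of -0.07, against -0.003 over all tested loci, and no upper 95% bound among them exceeded 0.43.

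Slc30a1 encodes ZnT1, the exporter of the plasma membrane and a target of MTF1. It was at 6.81, 5.38 and 5.96 FPKM in null libraries, against 5.12, 5.68 and 4.66 FPKM in control libraries. The groups overlapped, since 1 null library lay below the highest control. The log2 fold change was 0.19 (95% interval -0.04 to 0.43, limma adjusted p = 0.193), so the interval lies wholly below the value of Slc30a2. Within each library Slc30a2 stood at 2.19, 2.69 and 2.31 times Slc30a1 in null libraries, against 0.813, 0.709 and 0.854 times in control libraries. Slc30a2 RNA thus outranked Slc30a1 RNA in every null library and lay below it in every control library.

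Slc30a4 encodes ZnT4, a vesicular transporter whose loss in mouse gives zinc-poor milk. It was the lowest of the 10 in both groups, at 1.89, 1.72 and 1.89 FPKM in null libraries, against 1.95, 2.38 and 2.39 FPKM in control libraries. The groups did not overlap, but the gap was small and the log2 fold change of -0.19 (95% interval -0.41 to 0.03) did not pass (limma adjusted p = 0.175). The upper end of that interval lies far below the 1.60 of Slc30a2, the other vesicular transporter tied to milk zinc.

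Slc30a5, Slc30a6 and Slc30a7 encode the transporters of the early secretory pathway, where ZnT5 with ZnT6, and ZnT7, deliver zinc to enzymes such as alkaline phosphatase. Slc30a5 was the highest exporter, at 25.1, 22.7 and 21.2 FPKM in null libraries, against 24.4, 26.4 and 24.6 FPKM in control libraries. Slc30a6 was at 6.17, 6.35 and 7.32 FPKM in null libraries, against 6.76, 6.26 and 7.15 FPKM in control libraries. Slc30a7 was at 2.75, 3.22 and 2.95 FPKM in null libraries, against 3.26, 3.60 and 3.90 FPKM in control libraries. The groups overlapped for Slc30a5 and Slc30a6, and for Slc30a7 they lay next to each other without overlap. The log2 fold changes were -0.12 (95% interval -0.28 to 0.04), -0.02 (-0.21 to 0.17) and -0.21 (-0.41 to 0.001) for Slc30a5, Slc30a6 and Slc30a7, with limma adjusted p-values of 0.221, 0.864 and 0.129.

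Slc30a9 encodes ZnT9, which exports zinc from mitochondria. It was at 19.7, 20.7 and 19.6 FPKM in null libraries, against 19.0, 18.8 and 18.7 FPKM in control libraries. The null values were slightly higher without overlap, yet the log2 fold change was only 0.08 (95% interval -0.02 to 0.19, limma adjusted p = 0.215).

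**Figure D1:**
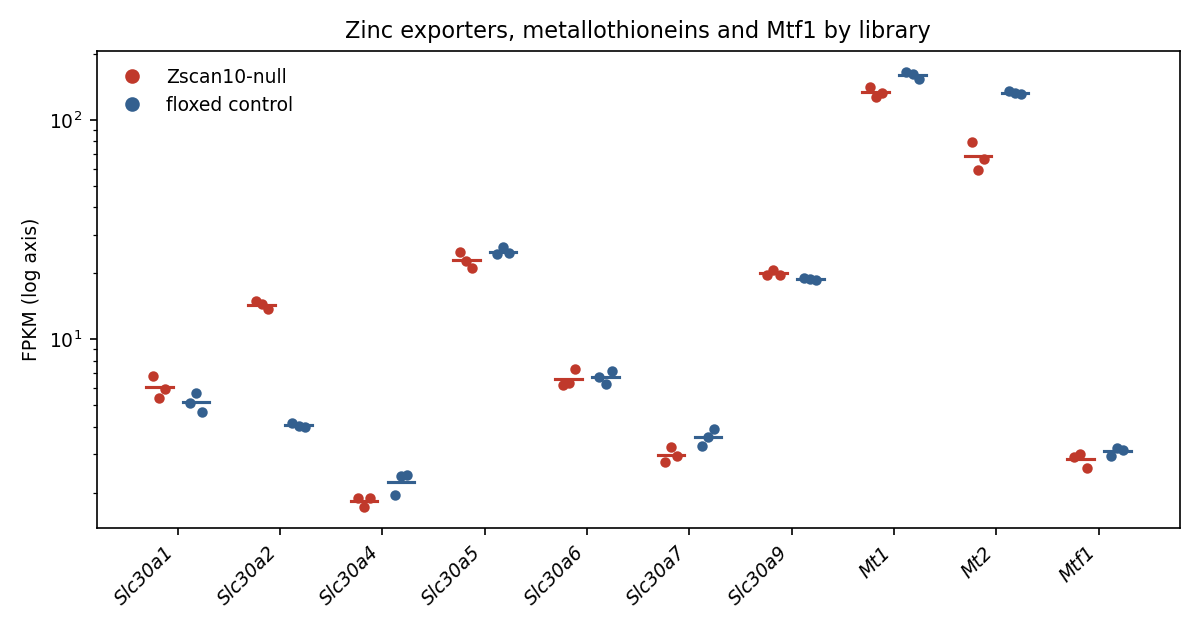
FPKM (log axis) of the 10 genes in each of the 3 null (red, left) and 3 control (blue, right) libraries, with a short line at each group mean. Slc30a2 sits near 14.4 FPKM in null and 4.06 FPKM in control libraries, Mt2 is lower in every null library, and the other exporters lie close together in both groups.

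Summed over the 7 exporters, RNA was 77.3, 74.6 and 72.7 FPKM in null libraries, against 64.6, 67.1 and 65.4 FPKM in control libraries. Without Slc30a2 the sum was 62.4, 60.1 and 58.9 FPKM in null libraries, against 60.5, 63.0 and 61.4 FPKM in control libraries, and the groups overlapped. Slc30a2 made up 19.2% ± 0.221 of the exporter sum in null libraries and 6.18% ± 0.227 in control libraries (SD, n = 3 each). This share is taken within a library, so no scaling between libraries enters it.

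The metallothioneins were lower in null libraries, opposite in direction to Slc30a2. Mt2 was at 79.4, 59.3 and 66.6 FPKM in null libraries, against 136, 133 and 131 FPKM in control libraries. Every null value lay far below every control value, and the null libraries spread more among themselves than the controls did. Mt2 averaged 68.4 ± 10.2 FPKM in null and 133 ± 2.51 FPKM in control libraries (SD, n = 3 each), or 51.4% of the control level, with a log2 fold change of -0.96 (SE 0.09, limma adjusted p = 0.000946). It ranked 72nd among the largest falls of the 11480 tested loci.

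Mt1, which lies 6.51 kb from Mt2 on chromosome 8 between gene centres, differed less. It was at 141, 128 and 133 FPKM in null libraries, against 165, 162 and 154 FPKM in control libraries. The groups did not overlap. Mt1 averaged 134 ± 6.84 FPKM in null and 160 ± 5.23 FPKM in control libraries (SD, n = 3 each), with a log2 fold change of -0.26 (SE 0.05, limma adjusted p = 0.00823). Mt1 and Mt2 were the members other than Slc30a2 that passed the threshold, 2 of 9, against 25.2% of all tested loci in either direction. For 5 of these 9 genes null and control values did not overlap, against 44.1% of tested loci. Nothing is read from either share, since the choice of genes followed this comparison.

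Mt2 stood at 0.561, 0.464 and 0.502 times Mt1 in null libraries, against 0.826, 0.823 and 0.848 times in control libraries. The 2 neighbouring genes thus differed unequally, and the groups did not overlap in this ratio, which no scaling between libraries affects. Mt1 and Mt2 together summed to 221, 187 and 199 FPKM in null libraries, against 300, 295 and 285 FPKM in control libraries, so the null sum was 69.0% of the control sum. The transcripts are short, 549 bases for Mt1 and 511 for Mt2, which makes FPKM less exact. Mt2 also shares 432 of its 588 annotated exon bases with the antisense locus Gm45774, and no source used here says whether strand was used in counting. The fibroblast marker sum given above was also lower in null libraries. Its part in the metallothionein difference was not tested.

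**Figure D2:**
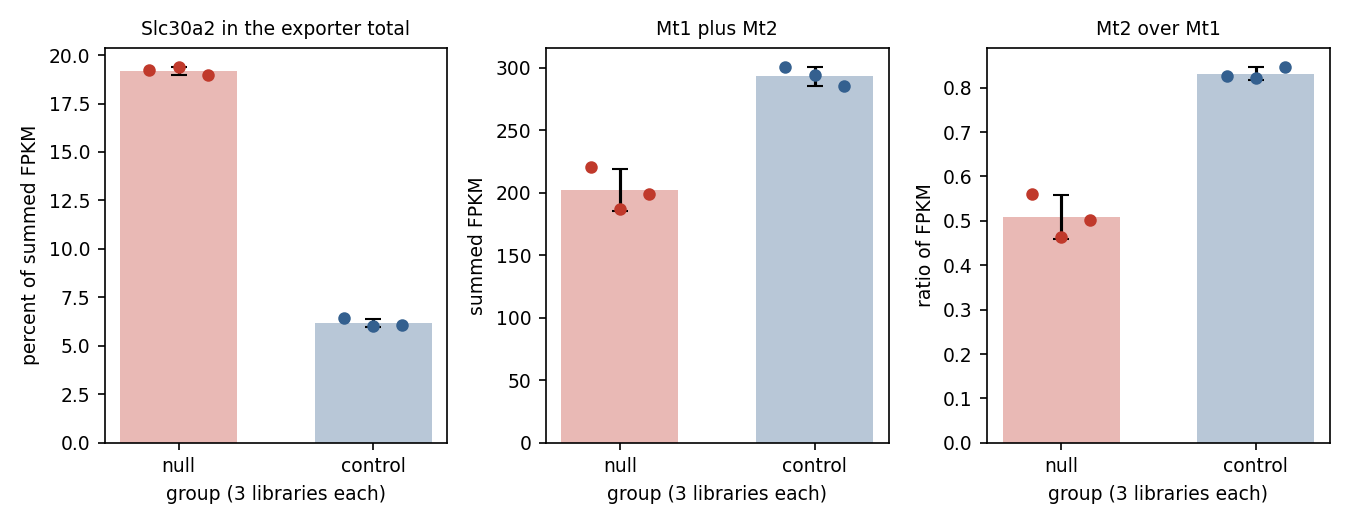
Share of Slc30a2 in the summed FPKM of 7 exporters (percent, left), summed FPKM of Mt1 and Mt2 (middle) and Mt2 over Mt1 (ratio of FPKM, right), for null and control. Bars are means of 3 libraries, whiskers SD and points libraries. The Slc30a2 share is near 19.2% in null and 6.18% in control libraries, and both metallothionein measures are lower in every null library.

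Mtf1, whose protein drives metallothionein transcription when zinc is high, was at 2.89, 3.01 and 2.60 FPKM in null libraries, against 2.95, 3.19 and 3.12 FPKM in control libraries. The groups overlapped. The log2 fold change was -0.09 (95% interval -0.28 to 0.09, limma adjusted p = 0.426). Mtf1 shares 721 of 8907 exon bases with the antisense gene 1110065P20Rik, which was at 9.61 FPKM in null and 8.70 FPKM in control libraries on average.

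FPKM is per length, so the levels of the 10 genes can be ordered. In null libraries the order of mean FPKM was Mt1, Mt2, Slc30a5, Slc30a9, Slc30a2, Slc30a6, Slc30a1, Slc30a7, Mtf1 and Slc30a4. There the neighbours Slc30a6 and Slc30a1, and Slc30a7 and Mtf1, overlapped in their library values, and all other neighbours were separate. In control libraries Slc30a2 came 7th, after Slc30a6 and Slc30a1, and the other 9 genes kept their order. No neighbours overlapped in that order.

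The remaining exporter and metallothionein genes were scarce in these cells. Slc30a8, the ZnT8 gene of pancreatic beta cells, was listed at 0 in every library. Slc30a3, the ZnT3 gene of synaptic vesicles, was at 0.0677, 0.122 and 0.334 FPKM in null libraries, against 0.667, 0.429 and 0.469 FPKM in control libraries. Slc30a10, known as a manganese exporter, averaged 0.0278 FPKM in null and 0.103 FPKM in control libraries. All 3 lay under the minimum mean of 1 FPKM for the test and were named after their values were seen. For Slc30a3 and Slc30a10 the groups did not overlap, and without that minimum the limma adjusted p was 0.0546 and 0.128. Both rest on roughly 11 fragments or fewer per library. Mt3 averaged 0.941 ± 0.546 FPKM in null and 1.65 ± 0.544 FPKM in control libraries, and Mt4 1.26 ± 0.576 FPKM in null and 2.91 ± 2.40 FPKM in control libraries (SD, n = 3 each). Neither passed in limma (adjusted p = 0.190 and 0.360), and 0 of the 2 had an unadjusted p under 0.05, against 4502 of all 11480 tested loci.

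The zinc importers showed small differences in both directions, more of them downward. Of 14 Slc39a genes 10 were tested, and 1 rose and 1 fell, with a median log2 fold change of -0.13, against -0.003 over all tested loci. Those 2 of 10 lie near the 25.2% of all tested loci that passed, so the count shows nothing particular to importers. Fold changes were negative for 8 of the 10 and positive for 2, against 5823 and 5657 of all tested loci. Null and control values did not overlap for 8 of the 10, against 44.1% of tested loci. An unadjusted limma p under 0.05 was found for 8 of the 10, against 4502 of all 11480 tested loci. No set test was run, and the lists were chosen with earlier results of these data known. Slc39a4 encodes ZIP4, the uptake transporter of the intestine. It was at 14.0, 14.2 and 15.1 FPKM in null libraries, against 12.4, 12.0 and 9.53 FPKM in control libraries. The groups did not overlap, and the log2 fold change was 0.33 (SE 0.10, limma adjusted p = 0.0409). This call was lost on leaving out control replicate 2 or 3 (limma adjusted p = 0.0688 and 0.0566) or null replicate 1, 2 or 3 (0.0659, 0.0888 and 0.117). It was also lost with no FPKM minimum (0.0676) and with no variance trend (0.0550).

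Slc39a11, the ZIP11 gene, fell to 3.37, 3.11 and 3.41 FPKM in null libraries, against 4.97, 4.87 and 4.27 FPKM in control libraries. The groups did not overlap, and the log2 fold change was -0.41 (SE 0.08, limma adjusted p = 0.0114). It lies on chromosome 11, whose 939 tested loci had a median log2 fold change of -0.12. The most abundant importer, Slc39a10 (ZIP10), was at 45.8, 51.7 and 50.2 FPKM in null libraries, against 41.8, 44.7 and 44.7 FPKM in control libraries. Its log2 fold change of 0.17 did not pass (limma adjusted p = 0.0666), although it did without null replicate 1 (0.0216) and with median centring (0.0422). The gene was named after its values were seen, as was Slc39a13 (ZIP13), at 2.76, 1.80 and 1.45 FPKM in null libraries, against 3.13, 3.03 and 3.08 FPKM in control libraries. The groups of Slc39a13 did not overlap, and it missed the threshold (limma adjusted p = 0.0629, and 0.00687 without null replicate 1).

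Slc39a8, the ZIP8 gene, was also named after its values were seen. It was at 0.328, 0 and 0.0390 FPKM in null libraries, against 0.818, 0.822 and 0.844 FPKM in control libraries. The control libraries were even, and every null library lay below them. Its mean was under the minimum for the test, and without that minimum the limma adjusted p was 0.00872. Summed over all 14 genes, importer RNA was 161.5 to 165.7 FPKM in null libraries and 165.7 to 169.5 FPKM in control libraries.

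**Figure D3:**
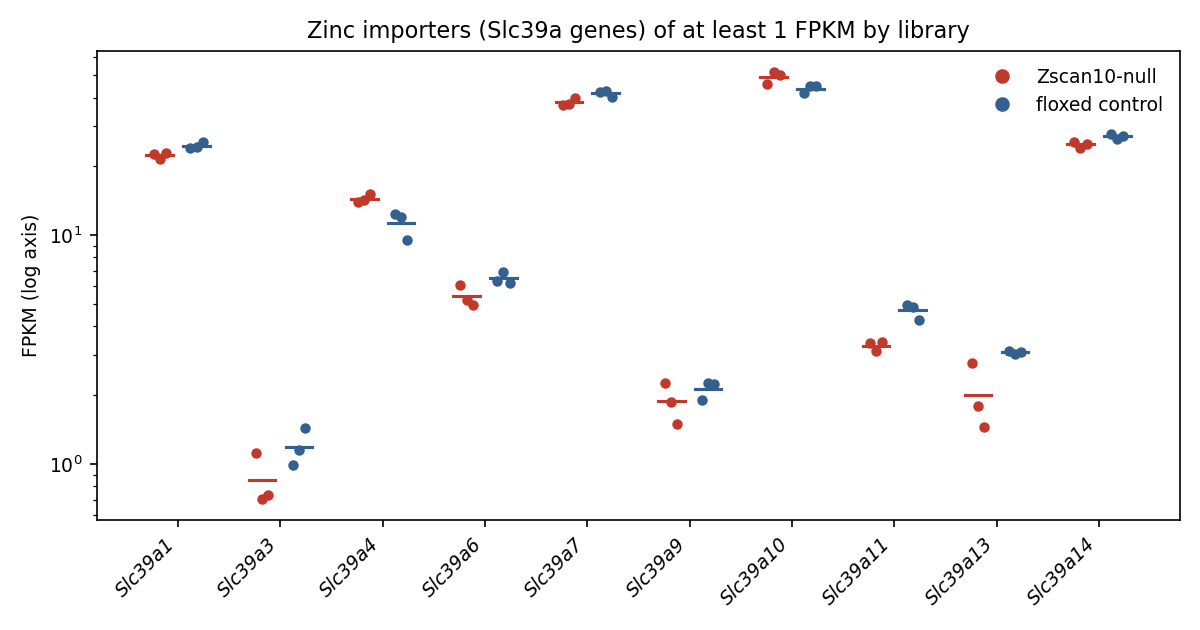
FPKM (log axis) of the 10 tested zinc importers in 3 null (red, left) and 3 control (blue, right) libraries, with a line at each group mean. Slc39a4 is higher and Slc39a11 lower in every null library, and both passed the test. Slc39a1, Slc39a6, Slc39a7, Slc39a13 and Slc39a14 are also lower and Slc39a10 higher in every null library, but did not pass.

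Among the listed other MTF1 targets and the listed genes induced by metals and oxidants, none passed as higher in null libraries. Of 5 other reported MTF1 targets 4 were tested, 0 rose and 1 fell, which is close to the 25.2% of all tested loci that passed. Fold changes were positive for 2 of the 4, and 1 of the 4 had an unadjusted limma p under 0.05. The gene that fell, Gclc, the catalytic subunit of the enzyme that starts glutathione synthesis, was at 22.6, 23.8 and 25.0 FPKM in null libraries, against 27.5, 28.2 and 28.0 FPKM in control libraries (log2 fold change -0.22, SE 0.05, limma adjusted p = 0.0162). Without control replicate 2 or 3 the adjusted p was 0.0609 and 0.0518. The selenoprotein gene Selenow, named Sepw1 in the files, was at 38.2, 48.1 and 59.1 FPKM in null libraries, against 41.7, 36.5 and 40.0 FPKM in control libraries, with wide spread among null libraries (limma adjusted p = 0.199, but 0.0242 without null replicate 1).

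Of 6 genes induced by metals and oxidants 5 were tested, 0 rose and 2 fell, with a median log2 fold change of -0.23. Over all tested loci, 25.2% passed in either direction and 12.4% fell. Of the 5, 5 had an unadjusted limma p under 0.05, against 4502 of all 11480 tested loci. Hmox1, the haem oxygenase gene, was at 30.3, 29.2 and 30.6 FPKM in null libraries, against 38.0, 38.8 and 43.4 FPKM in control libraries (log2 fold change -0.40, SE 0.06, limma adjusted p = 0.00326). Txnrd1, the cytosolic thioredoxin reductase gene, was at 62.1, 61.7 and 69.1 FPKM in null libraries, against 80.0, 77.2 and 80.3 FPKM in control libraries (log2 fold change -0.30, SE 0.05, limma adjusted p = 0.00662). Neither gene overlapped between the groups. Both kept passing in every alternative that was run. Nqo1, a quinone reductase gene named after its values were seen, went the other way, at 22.9, 25.0 and 26.9 FPKM in null libraries, against 21.2, 22.3 and 22.6 FPKM in control libraries. Its groups did not overlap, and it did not pass (log2 fold change 0.17, limma adjusted p = 0.0951, and 0.0308 without null replicate 1).

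Alpl, the tissue-nonspecific alkaline phosphatase that marks ES cells and takes its zinc in the secretory pathway, rose. It was at 78.2, 70.3 and 75.4 FPKM in null libraries, against 57.8, 56.8 and 58.4 FPKM in control libraries. The groups did not overlap, and the log2 fold change was 0.37 (SE 0.05, limma adjusted p = 0.00217). Of its list of 8 secretory zinc enzymes only Alpl and Enpp3 were tested. Enpp3, an ectonucleotide pyrophosphatase gene, was at 39.4 ± 2.58 FPKM in null and 38.7 ± 3.90 FPKM in control libraries (SD, n = 3 each, limma adjusted p = 0.825). Alppl2, another alkaline phosphatase gene named after its values were seen, lay under the minimum for the test. It was at 1.08, 0.575 and 0.692 FPKM in null libraries, against 0.189, 0.0577 and 0.316 FPKM in control libraries. These rest on roughly 10 to 17 fragments per null library and 1 to 5 per control library. Without that minimum its limma adjusted p was 0.0275, and Akp3, Enpp1, Enpp2 and Nt5e did not pass. The transporters that feed these enzymes, Slc30a5, Slc30a6 and Slc30a7, had no passing difference, as given above.

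Copper genes were looked at because metallothioneins bind copper too. Of 9 tested, 0 rose and 2 fell, with a median log2 fold change of -0.12, and 25.2% of all tested loci passed in either direction. Of the 9, 5 had an unadjusted limma p under 0.05, against 4502 of all 11480 tested loci. Slc31a1, the copper uptake transporter CTR1, was at 11.9, 10.8 and 11.3 FPKM in null libraries, against 13.3, 15.6 and 14.6 FPKM in control libraries (log2 fold change -0.33, SE 0.07, limma adjusted p = 0.0164). Its adjusted p was 0.0600 and 0.0548 without control replicate 2 or 3, and 0.0525 without null replicate 2. Commd1, which takes part in copper export, was at 81.5, 81.2 and 80.6 FPKM in null libraries, against 98.4, 104 and 93.9 FPKM in control libraries (log2 fold change -0.28, SE 0.04, limma adjusted p = 0.00460). Commd1 lies on chromosome 11, with the chromosome median given above.

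**Figure D4:**
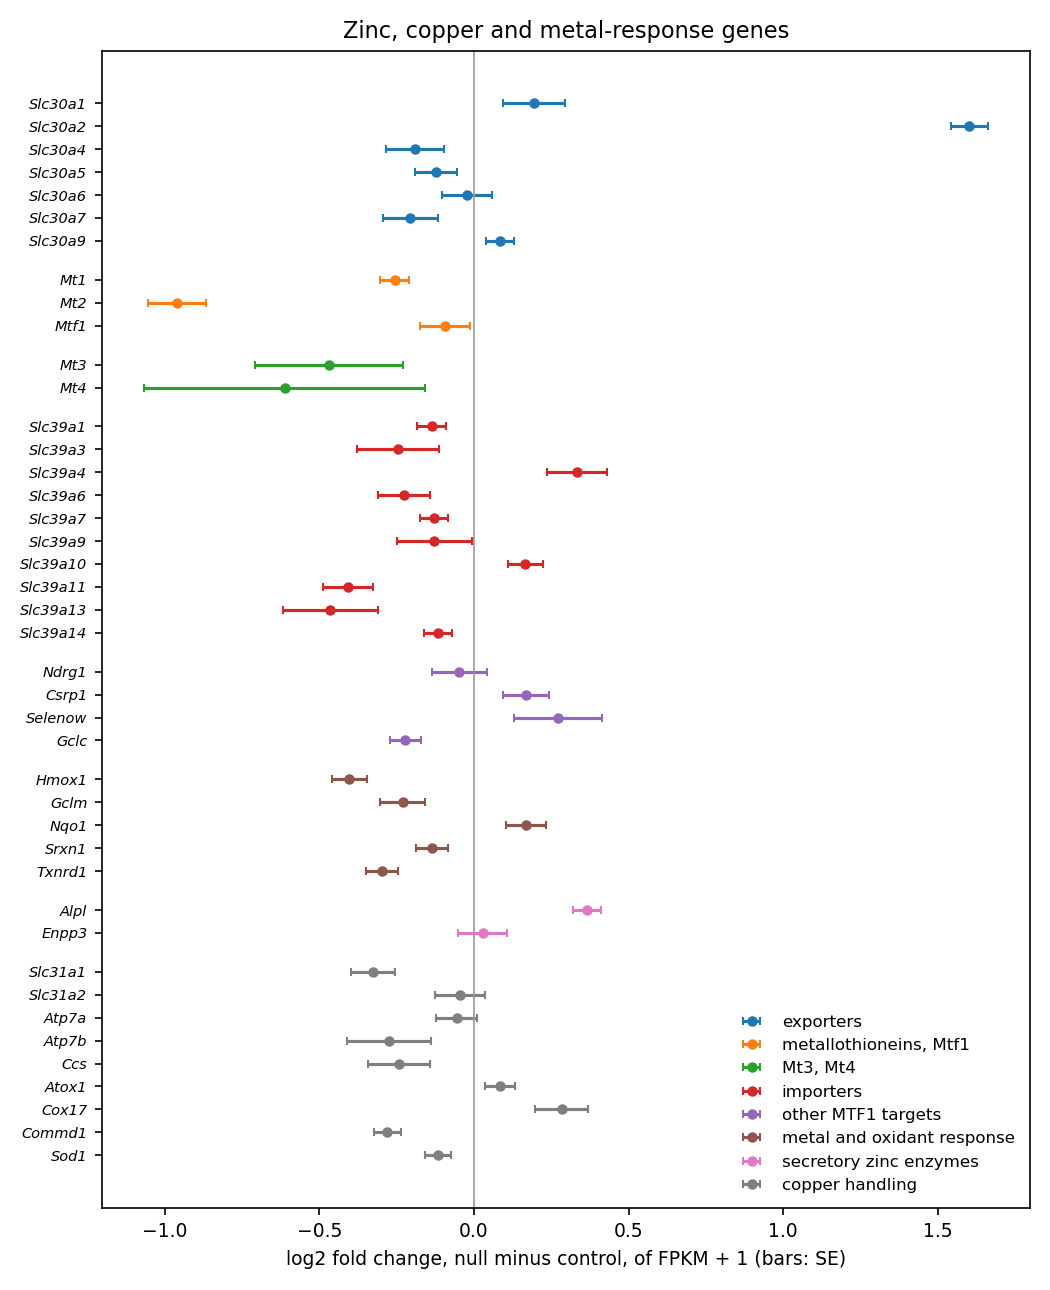
Log2 fold change of FPKM + 1, null minus control, with its SE, for each tested gene of the zinc, copper and metal-response lists (colours). Slc30a2 at 1.60 stands to the right of every other gene shown, Mt2 at -0.96 to the left, and the rest lie between -0.61 and 0.37.

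On chromosome 4, some genes beside Slc30a2 were also higher in null libraries. Of 7 other tested loci whose nearest edge lies within 100 kb of the gene, 3 rose and 0 fell. Over all tested loci, 25.2% passed in either direction and 12.8% rose. Extl1, an exostosin-like glycosyltransferase gene whose edge is 1.89 kb away, was at 2.14, 2.61 and 1.78 FPKM in null libraries, against 0.674, 0.984 and 0.892 FPKM in control libraries (log2 fold change 0.77, SE 0.13, limma adjusted p = 0.00565). With a pseudocount of 0.1 that fold change was 1.26. Trim63, a ubiquitin ligase gene known from muscle and 13.4 kb away on the other side, was at 5.42, 4.96 and 6.64 FPKM in null libraries, against 3.14, 3.27 and 3.29 FPKM in control libraries (log2 fold change 0.65, SE 0.10, limma adjusted p = 0.00461). Neither overlapped between the groups.

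The third was Zfp593, a zinc-finger gene 97.5 kb away, with 10.8 ± 0.802 FPKM in null and 8.56 ± 0.428 FPKM in control libraries (SD, n = 3 each, limma adjusted p = 0.0191). Its adjusted p was 0.0629 and 0.0645 without control replicate 1 or 3, and 0.0551 without null replicate 3. Pafah2, Grrp1, Pdik1l and E130218I03Rik, the other 4 tested loci and named to complete the count, did not pass (limma adjusted p = 0.591, 0.612, 0.867 and 0.619). E130218I03Rik spans chr4:134243763-134245873 and overlaps Zfp593 at chr4:134243306-134245591, so their fragments may be uncertain. Within 1000 kb between edges, a window chosen after the values were seen, 6 of 37 tested loci rose and 1 fell. Those that rose include the 3 within 100 kb. Over all tested loci 12.8% rose and 12.4% fell, so this wider count is not read as a result about the region.

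**Figure D5:**
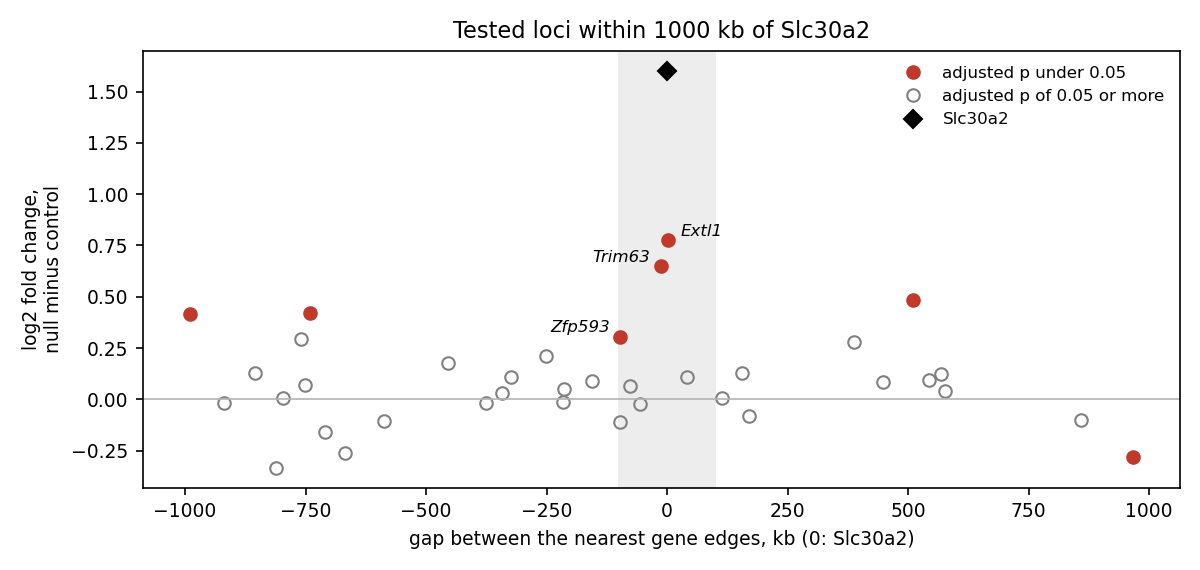
Log2 fold change, null minus control, of the 37 tested loci within 1000 kb of Slc30a2, against the gap between the nearest gene edges in kb, with the 100 kb window shaded. Filled points passed the adjusted p threshold, and Extl1 at 0.77 and Trim63 at 0.65 are the highest beside Slc30a2 at 1.60.

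Near the other 9 genes, 4 tested neighbours passed, in a comparison in which 25.2% of all tested loci passed. This count is not read as a result about these genes. Within 100 kb of Slc30a4, where 1 of 3 tested neighbours passed, the locus AA467197 with Mir147 was at 2.25, 2.79 and 1.39 FPKM in null libraries, against 0.833, 0.510 and 0.279 FPKM in control libraries (log2 fold change 1.02, limma adjusted p = 0.0113), a value that rose to 1.85 with a pseudocount of 0.1. Bend4, 1 of 2 beside Slc30a9, rose to 18.9 ± 1.08 FPKM in null libraries, against 14.9 ± 0.252 FPKM in control libraries (SD, n = 3 each, limma adjusted p = 0.00661). Yrdc, 1 of 9 beside Mtf1, was at 31.7 ± 0.571 FPKM in null and 26.4 ± 1.78 FPKM in control libraries (limma adjusted p = 0.0164, and 0.0501 and 0.0521 without null replicate 2 or 3). Extl2, 1 of 3 beside Slc30a7, was at 1.11 ± 0.340 FPKM in null and 2.12 ± 0.328 FPKM in control libraries (limma adjusted p = 0.0267). The call for Extl2 was lost without control replicate 2 or 3 (0.0827 and 0.0837) or null replicate 1 or 2 (0.0527 and 0.0645). No tested neighbour of Slc30a1 (1 tested), Slc30a5 (4) or Slc30a6 (5) passed. Apart from Mt1 and Mt2 themselves, none of the 4 tested neighbours of the metallothionein genes passed.

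The 5 named protein-coding genes with the profile nearest to Slc30a2 were Gabarapl2, Mylpf, Usp17la, Sfmbt2 and Alox5ap. Nearness was the Euclidean distance over the 6 libraries of log2(FPKM + 1) minus each gene's control mean, and ran from 0.396 for Gabarapl2 to 0.451 for Alox5ap. Sfmbt2 averaged 63.4 FPKM in null and 17.2 FPKM in control libraries. Alox5ap, closest to Slc30a2 in level, averaged 12.9 FPKM in null and 4.33 FPKM in control libraries. The genes of this account were left out of that search by rule, so none of them could appear. None of the 5 lies on chromosome 4, and the distance is a description of these 6 libraries.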

How the data were processed

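Ribosomal RNA was removed from total RNA before sequencing, per the labels' protocols. Per the submitters' processing notes, Trim Galore, FastQC, TopHat, Cuffdiff and build mm10 were used, with roles and versions not given in the sources used here. Each deposited file has 1 value per locus and RefSeq accessions. No label states the unit. The deposited values were taken as FPKM made by the authors, since they are not whole and their totals differ. No source names a scaling between libraries.

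Loci were placed on GRCm38.p6, the build also called mm10. Fragment numbers were estimated from the steps between low values, of which 90.8% of 2139 were whole multiples within 1%, and are rough.

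The test was limma 3.58.1 in R 4.3.3 with a variance trend, null minus control, on log2(FPKM + 1). Loci averaging 1 FPKM or more entered, 11480 in all, with Benjamini-Hochberg adjustment at 0.05. A pseudocount of 1 shrinks changes of low genes. The fit was tested on simulated data. No count test was run.

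The 10 genes and the lists were chosen with earlier results of these data known. Named by rule were the 10 genes, Zscan10, each list's and neighbour's passing genes, the 2 most abundant tested genes of a list where fewer than 2 passed, and the 5 profiles nearest to Slc30a2. Of 77 listed symbols 77 were found. Alternatives changed the pseudocount, filter, scaling, variance trend, a replicate block and each library in turn.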

Additional observations from a re-analysis of the deposited data

How the results depend on the processing

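The members' calls did not change in any alternative in which they could be tested: Mt1 and Mt2 passed throughout (log2 fold changes -0.31 to -0.22 and -1.07 to -0.86), and the other 7 tested members did not. Slc30a2 ran from 1.58 to 1.80, the highest with a pseudocount of 0.1. Slc30a6 lay near 0 and changed sign with quantile normalization (0.0163) and with 1 library left out, where it ran from -0.0882 to 0.0192 and was above 0 without control replicate 3, null replicate 1 or null replicate 2. With quantile normalization Ndrg1 (0.0003), Enpp3 (-0.001), Slc31a2 (0.014), Atp7a (0.0001) and Atox1 (-0.0122) also changed sign, as did Enpp3 without control replicate 1 or 3 and Slc31a2 without null replicate 3, with ranges of -0.0214 to 0.107 and -0.0863 to 0.0088 over the libraries left out. None of these passed. For all of these changes the cause was not tested.

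The count of loci past the threshold was 2894, and 1697 to 2903 with 1 library left out, lowest without control replicate 2 and at 1741 without control replicate 1; fewer libraries enter those fits. Of the tested importers 2 passed, Slc39a4 and Slc39a11. With a minimum of 5 FPKM 1 passed, as Slc39a11 lay under that minimum and was not tested. With no minimum 2 passed, Slc39a11 and Slc39a8, and Slc39a4 did not. With no variance trend 1 passed. With 1 library left out 1 to 4 passed, 4 being without null replicate 1 (Slc39a6, Slc39a10, Slc39a11 and Slc39a13). Same-numbered libraries deviated together with correlations of -0.0024, 0.108 and 0.0527, and null replicate 1 correlated best with control replicate 3 (0.163). With 3 libraries per group, these values cannot settle whether the numbers pair the libraries. Rough depths were alike by number: 7630000, 8450000 and 7730000 fragments in null replicates 1, 2 and 3. In control replicates 1, 2 and 3 they were 7730000, 8420000 and 7700000, so replicates 1 and 3 were also alike. With a replicate block 2264 loci passed, Slc39a4, Slc31a1 and Zfp593 no longer did, and Slc39a10 and Cox17 did. Over 49 genes and 621 gene settings, 24 lost a call, 16 gained one and 12 changed sign. Genes under about 1 FPKM rest on few fragments.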
